A study of Mus musculus with 18 samples.

Results

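The nuclear genes for subunits of the respiratory chain and ATP synthase were followed in bone marrow-derived mesenchymal stem cells (MSCs) from young mice, from old mice, and from old mice after co-culture with young MSCs. Members were picked by a rule on gene symbols, itself proposed with earlier results of these data known. They were the symbols of the Nduf a, b, c, s and v series (complex I), Sdha to Sdhd (complex II), the Uqcr series and Cyc1 (complex III), Cox4 to Cox8 (complex IV) and the Atp5 series (ATP synthase, here complex V). The rule found 85 of the 27179 genes in the table, and 78 of these averaged at least 10 normalized counts across the 18 libraries and were tested among 14353 genes. All 36 complex I genes passed this limit, with 3 of 4 in complex II, 8 of 9 in complex III, 14 of 18 in complex IV and 17 of 18 in complex V.

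All cells were primary MSCs of C57BL6 mice, kept for 7 days at 100000 cells per well. Young donors were 6 weeks old and old donors 18 to 24 months old. Rejuvenated old MSCs were old MSCs that shared their well with young MSCs for these 7 days, across a membrane of 0.4 µm pores that passes soluble factors only. Each group had 6 libraries of the same numbering. The comparison of rejuvenated old with old MSCs holds the presence of a further cell layer together with its age, which cannot be told apart here. The labels call the libraries biological replicates and do not say how many mice gave cells, so the p-values measure the spread between these cultures.

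As background, the respiratory chain carries electrons from NADH (complex I) and succinate (complex II) through coenzyme Q, complex III and cytochrome c to oxygen at complex IV. Complexes I, III and IV pump protons across the inner mitochondrial membrane, and ATP synthase uses their return to make ATP. Most subunits are encoded in the nucleus and a few in mitochondrial DNA. Complex IV is known for subunits with tissue-restricted isoforms, among them a COX4 form expressed in lung and induced by low oxygen, heart and muscle forms of COX6A, COX7A and COX8, and a testis form of COX6B.

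The libraries held 22936251 to 29559194 reads on genes, and library-wide facts that bear on the subunits are as follows. Of 10 stromal marker genes, all were measured, and their summed normalized counts were 58330 to 71955 in young, 230977 to 251653 in old and 258154 to 311056 in rejuvenated old MSCs. Cxcl12 alone gave 8970.3 to 9438, 185514 to 207265 and 209167 to 260803 in the same order, and the other 9 summed to 48893 to 62582, 43224 to 46854 and 47401 to 50306. Without Cxcl12 the sums were thus higher in the young libraries than in the old. Ly6a weighed heavily in them, at 19881 to 33910 in young, 5629 to 7488 in old and 11169 to 15051 in rejuvenated old MSCs. The order of the sums is therefore not that of most of the 10 markers. In young against old MSCs 4 of the 10 were higher and 6 lower, and after co-culture 3 were higher and 4 lower. Of all tested genes 41.6% were higher and 44.1% lower in young against old MSCs, and 21% and 20.6% after co-culture. Thy1 ran from 175 to 227 in young but only 0 to 3.23 in old MSCs, and Eng from 147 to 175 in young and 7008 to 7681 in old MSCs. The 14 macrophage markers summed to 925.7 to 1039 in young, 17188 to 21525 in old and 17167 to 20903 in rejuvenated old MSCs, and all 14 were lower in young than in old MSCs. In the young libraries 9 of the 14 had at most 3 reads in every library, with Ptprc and Adgre1 at 0. Between rejuvenated old and old MSCs 1 of the 14 was higher and 1 lower. Cd34, which young MSCs held at 6787 to 7191, was 401.6 in rejuvenated old library 1 and 24.2 to 41.9 in the other 5. In such bulk libraries a smaller share of a cell type and less RNA per cell cannot be told apart, and the part of these markers in the young and old subunit values was not tested.

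Per kilobase of exon, the median member held 1594 normalized counts in complex I, 1233 in complex II, 1940 in complex III, 1944 in complex IV and 1629 in complex V, as means over all libraries. Cox8a, the common form of complex IV subunit 8, had the highest level of any member at 13099 per kilobase, and Cox6b2 the lowest of those tested at 27.5. In complex V the catalytic beta subunit gene Atp5b was highest, at 7801 per kilobase. The 7 genes under the limit were Cox7b2 and Cox8c, both listed at 0, Uqcr11 (mean 0.111), Sdhd (0.893), Cox8b (2.03), Cox7a2 (3.09) and Atp5c1-ps (3.25), a pseudogene. Just inside the limit stood Cox6b2 (30.5), Cox6a2 (39.5), Cox7a1 (47.7) and Cox4i2 (49.0). Sdhd, Uqcr11 and Cox7a2 encode subunits found in most cells, and no comparison was made with their near-zero values.

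Co-culture with young MSCs moved most of these genes little and a few minor complex IV isoforms strongly. Between rejuvenated old and old MSCs, 24 of 78 subunit genes were higher and 5 lower at an adjusted p under 0.05, which is 37.2% called against 41.6% of all tested genes. Higher calls made up 30.8% of the subunits and 21% of all genes, and lower calls 6.41% and 20.6%. The median log2 fold change of the subunits was 0.075, beside 0.0081 over all tested genes. By complex, 9 were higher and 2 lower of 36 in complex I, 1 and 0 of 3 in complex II, 2 and 1 of 8 in complex III, 6 and 1 of 14 in complex IV, and 6 and 1 of 17 in complex V. The complex medians lay close together, at 0.077, 0.080, 0.058, 0.074 and 0.080 in the same order. A change of at least 1 on the log2 scale was reached by 4 genes, all in complex IV (Cox4i2, Cox7a1, Cox6a2 and Cox6b2), and each of the other 74 lay between -0.26 (Ndufa4) and 0.32 (Ndufv3). Cox4i2 passed the limit on the mean through the rejuvenated old libraries alone and Cox6a2 through the young ones alone, so a large difference was built into their being tested.

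**Figure D1:**
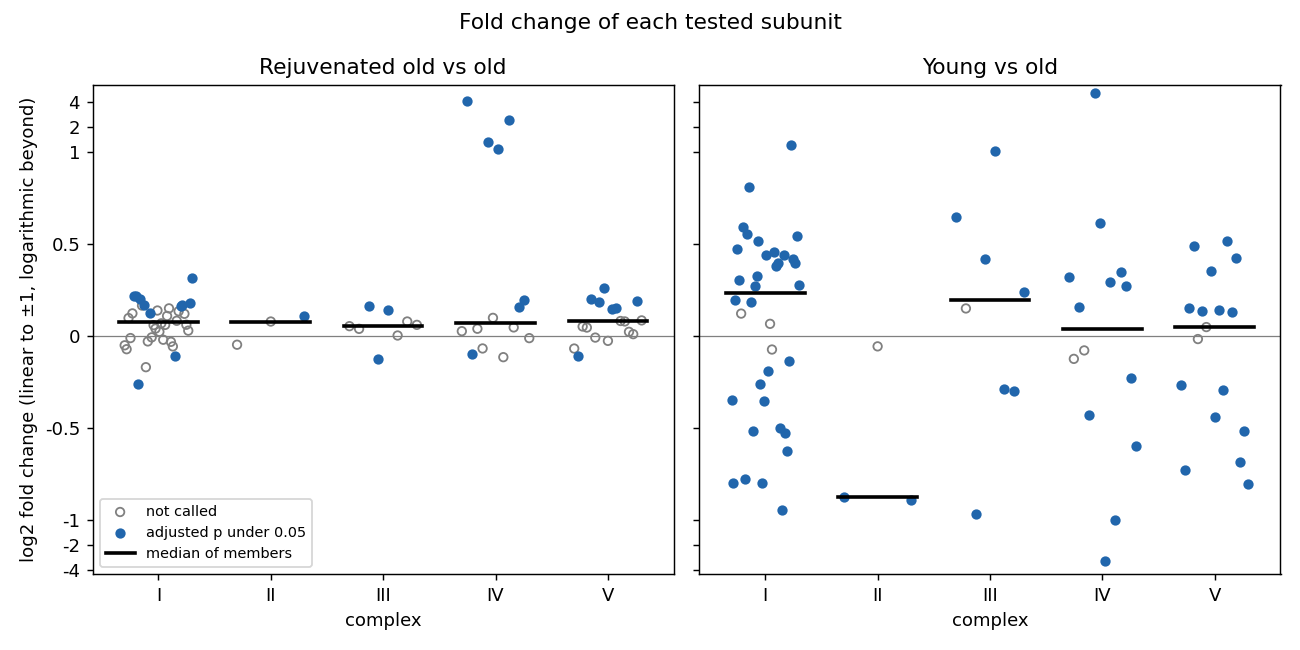
Log2 fold change (y axis, linear to 1 in either direction and logarithmic beyond) of each of the 78 tested subunits by complex (x axis), for rejuvenated old against old MSCs on the left and young against old MSCs on the right. Filled points had an adjusted p under 0.05 (29 on the left, 69 on the right), open points did not, and bars are medians, which on the left lie between 0.058 and 0.080.

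The higher calls did not rest evenly on the 6 co-cultured libraries. Measured against the mean of the old libraries, the median subunit stood at -0.030, 0.064, 0.14, 0.12, 0.21 and -0.062 in rejuvenated old libraries 1 to 6, while the old libraries ran from -0.059 to 0.037. Libraries 3, 4 and 5 thus lay clearly above the old ones, and libraries 1 and 6 did not. In all 5 complexes library 5 was the highest of the 6 and libraries 1 and 6 the lowest. Without library 5 the calls were 16 higher, and without library 6 they were 32 higher. The 5 lower calls became 3 without old library 4, without rejuvenated old library 1 or without rejuvenated old library 6.

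Other short transcripts moved in the same libraries. The subunit genes are short, with a median of 1696 exon bases against 4455 over the tested genes. The 831 other tested genes under 1500 exon bases had medians of 0.018, 0.11, 0.12, 0.14, 0.24 and 0.017 in rejuvenated old libraries 1 to 6, and the 12383 longer ones lay between -0.014 and 0.0059. Of these short other genes 251 were higher and 61 lower after co-culture, with a median of 0.10, and the 35 short subunits also had a median of 0.10. When each library was centred on genes of like length, an alternative chosen after seeing the data, 14 subunits were higher and 12 lower. Cox4i2, Cox7a1, Cox6a2 and Cox6b2 were among the 14. Of 14 proliferation genes, 6 were called higher and 0 called lower after co-culture, where 21% of all genes were higher and 20.6% lower. Their summed counts were 17190 to 20370 against 14763 to 17463, which overlap, and their part was not tested.

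**Figure D2:**
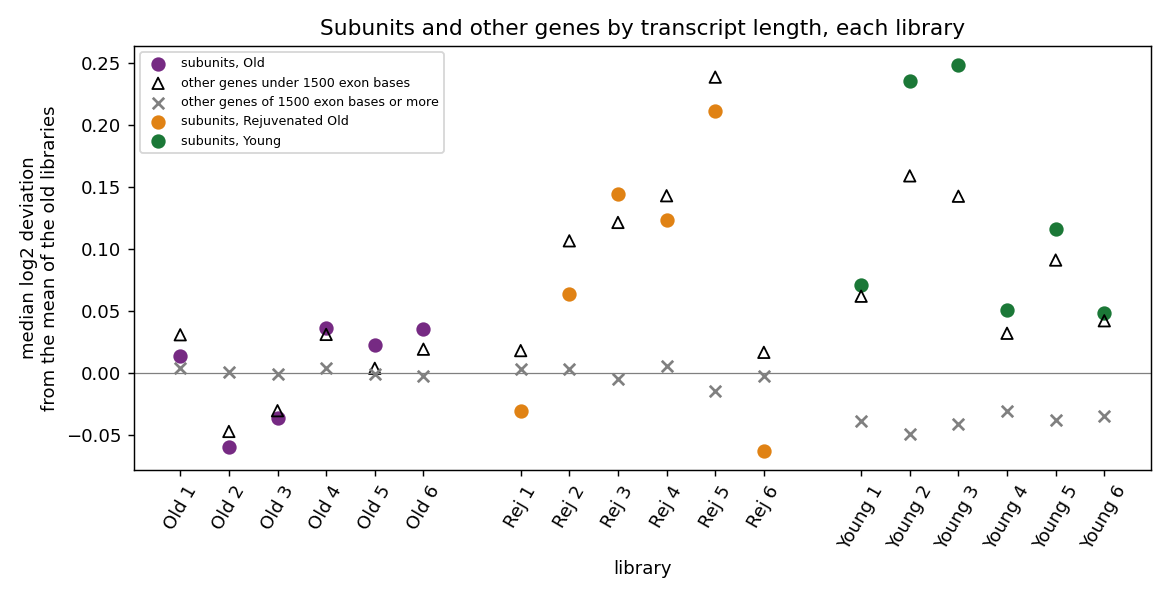
Median log2 deviation from the mean of the old libraries (y axis) for each library (x axis), for the 78 subunits (filled circles), 831 other genes under 1500 exon bases (triangles) and 12383 longer genes (crosses). In rejuvenated old libraries the circles and triangles rise together to 0.21 and 0.24 in library 5, and in the young libraries the circles run from 0.049 to 0.25.

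Young and old MSCs differed in nearly all subunit genes, as they did in most tested genes, and in both directions. In young MSCs 39 subunits were higher and 30 lower than in old MSCs, or 88.5% called against 85.7% of all tested genes. Of all tested genes 41.6% were higher and 44.1% lower, against 50% and 38.5% of the subunits. The median over the subunits was 0.13, beside -0.022 over all tested genes. The 831 other genes under 1500 exon bases had a median of 0.088, with 379 higher and 328 lower, and the longer ones -0.039. Against the mean of the old libraries, the median subunit stood at 0.24 and 0.25 in young libraries 2 and 3. In the remaining young libraries it ran from 0.049 to 0.12. The short other genes were also highest in young libraries 2 and 3, at 0.16 and 0.14, and ran from 0.032 to 0.091 in the rest. Complex I had 20 higher and 13 lower, complex II 0 and 2, complex III 4 and 3, complex IV 7 and 5, and complex V 8 and 7. Most of these differences were moderate, since 28 of 78 reached 0.5 on the log2 scale in either direction and 5 reached 1. Among all tested genes 56.6% reached 0.5.

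The direction in young against old MSCs varied with the chromosome. None of the 11 subunits on chromosomes 1, 12 and 16 was higher in young MSCs and 10 were lower, with a median of -0.69. All other tested genes on chromosomes 1, 12 and 16 had medians of -0.69, -0.45 and -0.76. The shares of all tested genes there that were lower were 73.62%, 66.94% and 80.49%, and 17.25%, 18.75% and 10.54% were higher. On chromosome 7 the other genes had a median of 0.61, and 5 of 7 subunits were higher, the exceptions being Cox6b2 and Cox7a1. There 69.96% of all tested genes were higher and 19.67% lower. All 6 subunits on chromosome 13 were lower and all 6 on chromosome 17 higher, where the other genes stood at -0.30 and 0.22. On chromosome 13, 58.27% of all tested genes were lower and 26.35% higher, and on chromosome 17, 29.93% were lower and 55.72% higher. Outside chromosomes 1, 7, 12 and 16 the counts were 34 higher and 18 lower of 60. When each gene was centred on its chromosome's median, Ndufv3, Cox5a, Ndufs1 and Uqcrfs1 changed direction in this comparison, and the cause of the chromosome pattern was not tested.

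**Figure D3:**
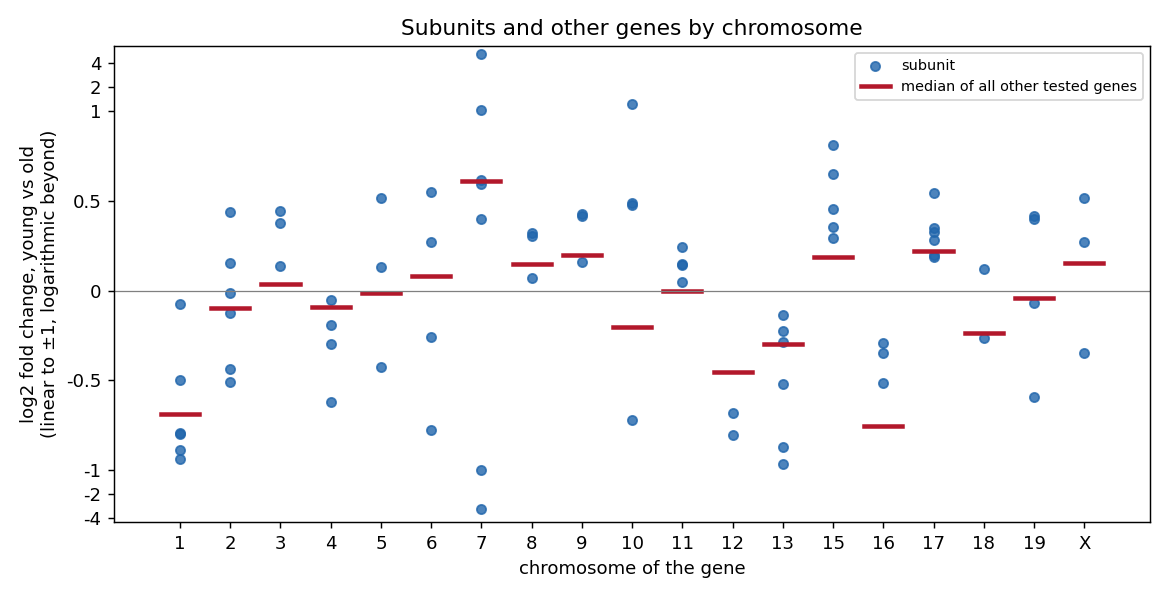
Log2 fold change of young against old MSCs (y axis, linear to 1 in either direction and logarithmic beyond) of each tested subunit (points) by chromosome (x axis), with the median of all other tested genes there (bars). On chromosome 1 the 6 subunits have a median of -0.80 where the other genes stand at -0.69, and on chromosome 7 a median of 0.59 beside 0.61.

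Complex I takes electrons from NADH through a flavin and a series of iron-sulfur clusters. Ndufs1, its largest subunit, had lowest, median and highest normalized counts of 1431, 1517 and 1605 in the young, 2043, 2144 and 2219 in the old and 1976, 2066 and 2142 in the rejuvenated old libraries. The young libraries all lay under the old ones, at a log2 fold change of -0.50 ± 0.033 (SE, adjusted p = 2.12e-12). Ndufv1, which holds the flavin, ran the other way, with 3608, 3821 and 4048 in the young, 2754, 2869 and 3079 in the old and 2634, 2979.9 and 3264 in the rejuvenated old libraries. Its log2 fold change in young against old MSCs was 0.40 ± 0.045 (SE, adjusted p = 2.31e-08), and neither Ndufs1 (-0.055, adjusted p = 0.194) nor Ndufv1 (0.030, adjusted p = 0.631) was called after co-culture. Ndufs7, an iron-sulfur subunit on the path to coenzyme Q, held 2452, 2641 and 2935 in the young, 1029.8, 1120.1 and 1213 in the old and 1072, 1239 and 1326 in the rejuvenated old libraries. It was the complex I gene most raised in young MSCs (1.24 ± 0.055 SE, adjusted p = 9.95e-16), with no overlap between young and old libraries, and was uncalled after co-culture (0.12, adjusted p = 0.0813).

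Ndufv3, a small subunit of the NADH-binding arm, showed the largest rise of complex I after co-culture. Its counts were 3898, 4181 and 4429 in the young, 3376, 3426 and 3520.4 in the old and 3832, 4175 and 5092 in the rejuvenated old libraries. Each rejuvenated old library exceeded each old one, and the log2 fold change was 0.32 ± 0.049 (SE, adjusted p = 1.7e-05), with young against old MSCs at 0.28 ± 0.049 (SE, adjusted p = 1.39e-05). Also higher in rejuvenated old MSCs were Ndufa2, Ndufa3, Ndufa5, Ndufa7, Ndufb10, Ndufs5, Ndufs6 and Ndufv2, by 0.13 (Ndufb10) to 0.22 (Ndufa2). Ndufa4 fell. It is named for complex I but is now placed with complex IV. Its counts were 5319, 5608 and 6146 in the young, 9073, 9911 and 10144 in the old and 7335, 8151 and 9152 in the rejuvenated old libraries, and the ranges of old and rejuvenated old libraries overlapped. The log2 fold change was -0.26 ± 0.050 (SE, adjusted p = 0.000257) after co-culture and -0.78 ± 0.050 (SE, adjusted p = 1.13e-12) in young against old MSCs. Its paralogue Ndufa4l2, no member here and known as a gene induced by low oxygen, went from 147 to 173 in old to 2686 to 3662 in rejuvenated old and 2097 to 2353 in young MSCs.

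Complex II oxidises succinate and belongs to the citric acid cycle as well. Sdha, the flavin subunit that binds succinate, had counts of 3412, 3511 and 3619 in the young, 6355, 6435 and 6528 in the old and 5729, 6273 and 6598 in the rejuvenated old libraries. The log2 fold change was -0.87 ± 0.030 (SE, adjusted p = 5.76e-18) in young against old MSCs, and -0.046 after co-culture (adjusted p = 0.225). Sdhb, the iron-sulfur subunit, held 2355, 2447 and 2668 in the young, 2439, 2548 and 2694 in the old and 2456, 2775 and 2903 in the rejuvenated old libraries, with overlapping ranges and no call in either comparison (-0.055, adjusted p = 0.215, and 0.080, adjusted p = 0.13). Sdhc, a membrane anchor, held 2349.5, 2479 and 2589.8 in the young, 4219, 4625 and 4836 in the old and 4552, 5063 and 5204 in the rejuvenated old libraries. It was lower in young than in old MSCs (-0.89 ± 0.038 SE, adjusted p = 4.25e-16) and slightly higher in rejuvenated old than in old MSCs (0.11 ± 0.038 SE, adjusted p = 0.0243), the latter lost without old library 2 or without rejuvenated old library 3, 4 or 5.

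Complex III passes electrons from coenzyme Q to cytochrome c. Cyc1, its cytochrome c1, had counts of 4459, 4639 and 5054 in the young, 2758, 3003 and 3183 in the old and 2785, 3150.0 and 3351 in the rejuvenated old libraries, and Uqcrfs1, the Rieske iron-sulfur protein, 1879, 1944 and 2039 in the young, 2222, 2394 and 2455 in the old and 2271, 2396 and 2502 in the rejuvenated old libraries. Cyc1 was higher in young than in old MSCs (0.65 ± 0.044 SE, adjusted p = 2.81e-12) and Uqcrfs1 lower (-0.29 ± 0.033 SE, adjusted p = 2.86e-08). Both stayed uncalled after co-culture (0.055, adjusted p = 0.345, and 0.0037, adjusted p = 0.939). The 2 core proteins Uqcrc1 and Uqcrc2 were both higher in young MSCs and moved apart after co-culture. Uqcrc1 held 4965, 5022 and 5242 in the young, 3666, 3787 and 3910.3 in the old and 3224, 3515 and 3620.2 in the rejuvenated old libraries, and Uqcrc2 3728, 3853 and 3964 in the young, 1832, 1892 and 1971 in the old and 1933, 2076 and 2205 in the rejuvenated old libraries. In young against old MSCs the log2 fold changes were 0.42 ± 0.030 (SE, adjusted p = 6.22e-12) and 1.03 ± 0.031 (SE, adjusted p = 5.94e-19). After co-culture they were -0.12 ± 0.030 (SE, adjusted p = 0.00196) and 0.14 ± 0.031 (SE, adjusted p = 0.000753), and for Uqcrc1 the libraries did not overlap. The Uqcrc2 call was lost when centred on genes of like length (0.069, adjusted p = 0.0519). Uqcrb, a small subunit near the coenzyme Q site, held 1125, 1188 and 1281 in the young, 2208, 2326 and 2566 in the old and 2303, 2651 and 2988 in the rejuvenated old libraries. It was the most lowered gene of the complex in young MSCs (-0.97 ± 0.052 SE, adjusted p = 4.24e-14) and was called higher after co-culture (0.17 ± 0.052 SE, adjusted p = 0.0138), but not when centred on genes of like length (0.095, adjusted p = 0.0691) or on chromosome medians (0.122, adjusted p = 0.0501).

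The abundant complex IV genes changed little after co-culture. Cox4i1, the common form of a regulatory subunit, held 15221, 16142 and 17883 in the young, 11816, 13326 and 13843 in the old and 11805, 13636 and 15164 in the rejuvenated old libraries. Cox6a1 held 5407, 5786 and 6171 in the young, 7371, 7802 and 8194 in the old and 6714, 7471 and 8335 in the rejuvenated old libraries, and Cox6b1 5241, 5459.5 and 5885 in the young, 3546, 3585 and 3722 in the old and 3561, 3837 and 4334 in the rejuvenated old libraries, both common forms as well. Against old MSCs, the log2 fold changes of the co-cultured cells were 0.027, -0.067 and 0.10 (adjusted p = 0.741, 0.243 and 0.057). Young MSCs had more Cox4i1 (0.32 ± 0.057 SE, adjusted p = 2.02e-05) and Cox6b1 (0.62 ± 0.041 SE, adjusted p = 2.24e-12) and less Cox6a1 (-0.43 ± 0.044 SE, adjusted p = 5.26e-09) than old MSCs, with no overlap between libraries. The Cox6b1 call of young against old MSCs was lost when centred on chromosome medians (0.064, adjusted p = 0.136). Cox5a, a subunit facing the matrix, held 2385, 2435 and 2720.3 in the young, 2161, 2259 and 2309 in the old and 1969, 2118 and 2192 in the rejuvenated old libraries. It was higher in young MSCs (0.16 ± 0.038 SE, adjusted p = 0.000503), but not when centred on genes of like length (0.032, adjusted p = 0.339). After co-culture Cox5a was barely lower (-0.095 ± 0.038 SE, adjusted p = 0.0488), a call lost in 13 alternatives. Among them were leaving out young library 5 or 6, old library 1, 2, 4 or 5, or rejuvenated old library 1, 3 or 6. Cox7b and Cox7c, small subunits of the complex, rose by 0.16 and 0.20 after co-culture.

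The largest differences of all 78 genes were found among the tissue-restricted isoforms, which did not all share a pattern. Cox4i2, the form known from lung and from low oxygen (chromosome 2, positions 152753916 to 152765039 of GRCm38, plus strand), had counts of 3.26, 4.72 and 10.1 in the young, 2.89, 6.46 and 9.998 in the old and 96.1, 126 and 209.5 in the rejuvenated old libraries. Young and old libraries overlapped, and every rejuvenated old library stood far above both. Since Cox4i2 was tested only because the rejuvenated old libraries were high, its p-values against that group are no independent support. The log2 fold change was 4.22 ± 0.27 (SE, adjusted p = 4.15e-11) against old and 4.34 ± 0.27 (SE, adjusted p = 6.89e-13) against young MSCs, while young and old MSCs differed by -0.12 (adjusted p = 0.674). Rejuvenated old MSCs therefore did not come to lie between old and young MSCs for Cox4i2. Per length, Cox4i2 made up 1.93 ± 0.423% of Cox4i2 and Cox4i1 together in rejuvenated old MSCs, 0.0967 ± 0.0346% in old and 0.0721 ± 0.0361% in young MSCs (SD, n = 6).

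Cox7a1, the heart and muscle form of COX7A (chromosome 7, positions 30184171 to 30186030, plus strand), was added to the genes described after its values were seen. Its counts were 4.12, 10.4 and 16.3 in the young, 12.8, 20.46 and 27.9 in the old and 77.1, 114 and 151 in the rejuvenated old libraries. All 6 rejuvenated old libraries lay above the other 12, at a log2 fold change of 2.46 ± 0.25 (SE, adjusted p = 5.13e-08) against old MSCs, and young MSCs were lower than old MSCs (-1.002 ± 0.25 SE, adjusted p = 0.000746). Quantile normalization ended the latter call. Cox6b2, the testis form of COX6B (chromosome 7, positions 4751792 to 4753094, minus strand), followed the same order, with 1.07, 2.12 and 5.06 in the young, 18.3, 28.2 and 38.2 in the old and 44.3, 58.8 and 78.02 in the rejuvenated old libraries. The 3 groups did not overlap, and the log2 fold changes were 1.10 ± 0.26 (SE, adjusted p = 0.00162) for rejuvenated old and -3.10 ± 0.26 (SE, adjusted p = 1.38e-10) for young against old MSCs.

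Cox6a2, the heart and muscle form of COX6A (chromosome 7, positions 128205435 to 128206366, minus strand), was highest in the young libraries. It held 83.1, 109 and 128 in the young, 0.962, 1.89 and 5.38 in the old and 1.89, 5.63 and 19.6 in the rejuvenated old libraries. Its log2 fold change was 5.19 ± 0.39 (SE, adjusted p = 1.86e-11) in young against old MSCs and -3.87 ± 0.39 (SE, adjusted p = 3.5e-09) in rejuvenated old against young MSCs. Since Cox6a2 was tested only because the young libraries were high, both p-values are no independent support. Rejuvenated old MSCs were above old MSCs by 1.32 ± 0.39 (SE, adjusted p = 0.00904), with overlapping ranges. This rise rested mostly on rejuvenated old libraries 1 and 3, at 19.6 and 15.2, where the others held 1.89 to 6.61, and it was 1.03 without library 1, the library with the high Cd34. About 10.3% of the exon bases of Cox6a2 overlap Itgad on the opposite strand, and the strand setting of the counting was not stated. Cox8b, the muscle form of COX8 (chromosome 7), was untested at its low level, with 4.12 to 8.96 in young MSCs and 0 in every other library. Against the limit of 3 reads per library its mean was at least 2.03-fold higher in young than in old MSCs and at least 2.11-fold higher than in rejuvenated old MSCs, counting error apart. Of 14 skeletal and heart muscle markers, 9 in each group had at most 3 reads in every library, and those at 0 in all young libraries included Ckm, Myod1 and Myog. Of the 3 tested, Tnnt3, a troponin, (108 to 153 in young and 8.03 to 15.5 in old libraries) and Ryr1, a calcium channel, (18.5 to 29.8 and 1.92 to 5.91) were higher in young than in old MSCs and Actn3, an actinin, was lower (24.7 to 52.2 and 830.0 to 1114). Their part in the Cox6a2 and Cox8b values was not tested.

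The minor isoforms were also set against the common ones within each library, as ratios of normalized counts + 1. At the lowest counts these ratios depend on the added 1. Cox4i2 and Cox6a2 were tested only because 1 group was high, so p-values of their ratios against that group are no independent support. The log2 ratio of Cox4i2 to Cox4i1 was -6.66 ± 0.32 in rejuvenated old, -10.85 ± 0.52 in old and -11.29 ± 0.59 in young MSCs (SD, n = 6). Rejuvenated old MSCs differed from both others by 4.19 and 4.63 (two-sided exact permutation test, p = 0.00216 each, the smallest that 6 against 6 libraries allow, and 0.0025 adjusted over 15 tests). Young and old MSCs differed by -0.44 in this ratio (exact permutation test, adjusted p = 0.195). The Cox6b2 to Cox6b1 ratio was -5.99 ± 0.25 in rejuvenated old, -6.99 ± 0.37 in old and -10.71 ± 0.65 in young MSCs, and all 3 differences had an adjusted p of 0.0025 in the exact test. The Cox6a2 to Cox6a1 ratio was -11.36 ± 0.59 in old, -9.97 ± 1.12 in rejuvenated old and -5.74 ± 0.23 in young MSCs, and rejuvenated old exceeded old MSCs by 1.39 (exact permutation test, adjusted p = 0.0209). No such ratio was made for Cox7a1, since Cox7a2 fell under the limit.

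**Figure D4:**
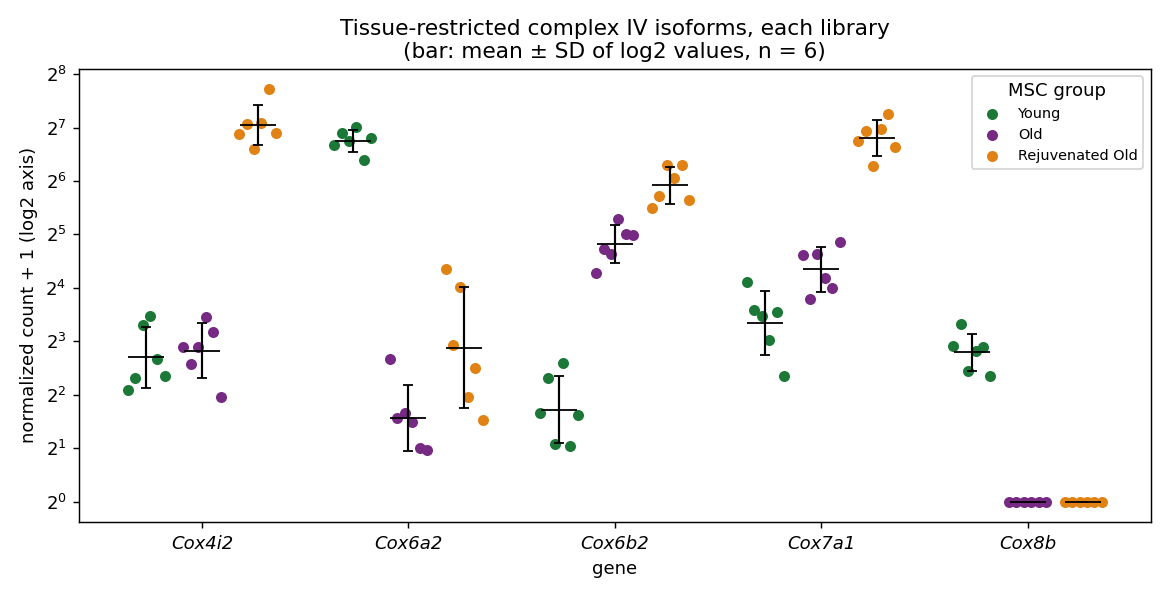
Normalized count + 1 (y axis, log2) of 5 tissue-restricted complex IV isoforms (x axis) in each library, with bars for the mean and SD of the log2 values (n = 6). Cox4i2, Cox6b2 and Cox7a1 are highest in all rejuvenated old libraries, Cox6a2 is highest in all young libraries, and Cox8b is above 0 in the young libraries alone.

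Complex V couples a rotating ring of c subunits to the catalytic head. Atp5a1, the alpha subunit of the head, had counts of 14250.5, 14539.9 and 15123 in the young, 17315, 17541 and 17903 in the old and 15311, 17078 and 17628 in the rejuvenated old libraries. Atp5b, the catalytic beta subunit, held 22886, 23706 and 24426 in the young, 38386, 39056 and 40224 in the old and 33545, 37343 and 38433 in the rejuvenated old libraries. Both were lower in young than in old MSCs (-0.27 ± 0.033 SE, adjusted p = 9.23e-08 and -0.73 ± 0.035 SE, adjusted p = 4.51e-15), and Atp5b was also lower after co-culture than in old MSCs (-0.11 ± 0.035 SE, adjusted p = 0.0182), where Atp5a1 was uncalled (-0.067, adjusted p = 0.107). The Atp5b call was lost when centred on chromosome medians (-0.081, adjusted p = 0.103). Atp5j2, subunit f of the membrane part, was the most raised in young MSCs, with 5402, 5829 and 6518 in the young, 3811, 4155 and 4393 in the old and 3742, 4510.5 and 5004 in the rejuvenated old libraries and a log2 fold change of 0.52 ± 0.064 (SE, adjusted p = 1.12e-07). Atp5s, coupling factor B, which is no core subunit, was the most lowered, with 224, 234 and 271 in the young, 382, 408 and 479 in the old and 391, 448 and 487 in the rejuvenated old libraries and -0.81 ± 0.067 (SE, adjusted p = 1.34e-10). Neither was called after co-culture (0.083, adjusted p = 0.324, and 0.086, adjusted p = 0.33). Atp5e, Atp5h, Atp5j and Atp5o, of the stalks that join both parts, rose by 0.15 (Atp5h) to 0.20 (Atp5e) after co-culture.

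The c subunit of the ring is made from 3 genes, Atp5g1, Atp5g2 and Atp5g3, whose mature proteins are the same. Atp5g3, the most expressed, held 6844, 7235 and 8025 in the young, 9172, 10059 and 10717 in the old and 8649, 10106 and 10695 in the rejuvenated old libraries. Atp5g2 held 2037, 2095 and 2206 in the young, 1531, 1637 and 1784 in the old and 1844, 1964 and 2184 in the rejuvenated old libraries, and Atp5g1 1702, 1873 and 1952 in the young, 1638, 1812 and 1867 in the old and 1895, 2045 and 2196 in the rejuvenated old libraries. After co-culture Atp5g2 rose by 0.26 ± 0.042 (SE, adjusted p = 3.19e-05) and Atp5g1 by 0.19 ± 0.043 (SE, adjusted p = 0.00139), both without overlap between libraries, and Atp5g3 stood at -0.025 (adjusted p = 0.743). In young against old MSCs Atp5g2 was higher (0.35 ± 0.042 SE, adjusted p = 5.1e-08), Atp5g3 lower (-0.44 ± 0.054 SE, adjusted p = 7.78e-08) and Atp5g1 uncalled (0.050, adjusted p = 0.284).

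The mix of these 3 genes was thus different in each group. The log2 ratio of Atp5g2 to Atp5g3 was -2.59 ± 0.048 in old, -2.30 ± 0.069 in rejuvenated old and -1.80 ± 0.046 in young MSCs (SD, n = 6). That of Atp5g1 to Atp5g3 was -2.48 ± 0.092, -2.26 ± 0.092 and -1.98 ± 0.039 in the same order. All 6 differences between groups had an adjusted p of 0.0025 in the two-sided exact permutation test. Rejuvenated old MSCs lay between old and young MSCs in both ratios. The summed normalized counts of all 3 genes were 13442 ± 695 in old, 13862 ± 1060 in rejuvenated old and 11335 ± 633 in young MSCs. Stretches of the Atp5g1 sequence of 150 bases or more matched 267 other genes at 90% identity or more, and 7 of these were pseudogenes. The closest match was 99.8% identical over 411 bases, where Atp5g1 has 4912 exon bases, so its counts are uncertain.

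**Figure D5:**
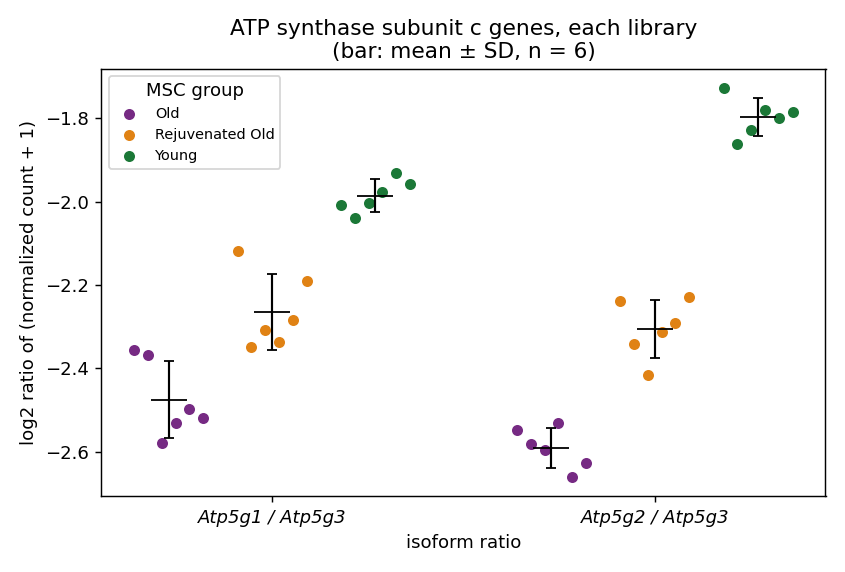
Log2 ratio of Atp5g1 and of Atp5g2 to Atp5g3 (y axis) in each library of the 3 groups (x axis), with bars for mean and SD (n = 6). Atp5g2 to Atp5g3 rises from -2.59 in old over -2.30 in rejuvenated old to -1.80 in young MSCs, with no overlap between groups.

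Rejuvenated old and young MSCs also differed in most subunits, with 36 higher and 34 lower in rejuvenated old MSCs, or 89.7% against 85.6% of all tested genes (44.1% higher and 41.5% lower). All 3 complex II genes were higher in rejuvenated old MSCs, by 0.14 (Sdhb) to 1.00 (Sdhc). Complex I had 14 higher and 17 lower, complex III 3 and 4, complex IV 7 and 7, and complex V 9 and 6. This comparison shares its libraries with the other 2, so agreement between them is no further support.

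Promoters of 63 of the 78 tested members were found in the RefSeq table (GRCm38.p6, 250 bases before to 50 after each start), and Cox4i1, Cox4i2 and Cox6a2 were not among them. The binding motif of NRF1, a regulator of respiratory genes, occurred on either strand in 16 of 63 members (25.4%), against 10.99% of the 10951 tested genes with a promoter. It was found in 7 of 32 complex I and 6 of 15 complex V promoters. AAGATGGC, the motif of YY1, occurred in 10 of 63 (15.9%) against 4.99% of tested genes, and CCGGAAGT, of the ETS family, in 4 of 63 (6.35%) against 8.68%. ACGTG, the core of the hypoxia response element, occurred in 16 of 63 (25.4%) against 28.6%. No motif contains another, and a match is one of letters only.

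The promoters of 4 genes are shown because their values above differ, 5′ to 3′ on the strand of the gene with motif matches in capitals. Uqcrc1 (chr9:108936398-108936697, plus strand) has 2 NRF1 matches, and Atp5g2 (chr15:102670998-102671297, minus strand) and Atp5g3 (chr2:73911277-73911576, minus strand), of opposite direction in young against old MSCs, have 1 NRF1 match each and ACGTG on one strand or both. Cox7a1 (chr7:30183921-30184220, plus strand) has an ACGTG match on the opposite strand and no NRF1 match.
Uqcrc1: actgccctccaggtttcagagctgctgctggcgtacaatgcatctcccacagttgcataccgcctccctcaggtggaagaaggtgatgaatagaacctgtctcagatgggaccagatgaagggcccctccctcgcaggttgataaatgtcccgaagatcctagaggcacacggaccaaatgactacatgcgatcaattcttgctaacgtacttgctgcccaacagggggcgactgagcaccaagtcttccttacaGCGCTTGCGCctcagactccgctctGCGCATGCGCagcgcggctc
Atp5g2: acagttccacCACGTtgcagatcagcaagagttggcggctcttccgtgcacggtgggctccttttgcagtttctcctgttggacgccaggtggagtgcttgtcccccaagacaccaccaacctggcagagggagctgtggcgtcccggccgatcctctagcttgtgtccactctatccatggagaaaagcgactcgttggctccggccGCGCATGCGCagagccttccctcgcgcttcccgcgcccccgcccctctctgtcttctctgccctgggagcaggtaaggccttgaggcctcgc
Atp5g3: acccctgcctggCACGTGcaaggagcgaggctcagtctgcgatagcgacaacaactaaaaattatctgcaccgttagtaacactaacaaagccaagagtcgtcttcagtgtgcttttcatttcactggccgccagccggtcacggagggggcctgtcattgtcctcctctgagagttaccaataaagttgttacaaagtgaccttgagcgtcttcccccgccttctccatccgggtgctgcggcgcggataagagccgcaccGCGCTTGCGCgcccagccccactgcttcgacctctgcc
Cox7a1: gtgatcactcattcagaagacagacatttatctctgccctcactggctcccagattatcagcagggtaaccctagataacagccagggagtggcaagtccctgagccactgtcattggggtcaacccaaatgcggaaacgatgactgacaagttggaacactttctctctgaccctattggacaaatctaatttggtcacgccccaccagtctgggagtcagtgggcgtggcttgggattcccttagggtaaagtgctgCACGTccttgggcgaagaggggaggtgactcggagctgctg

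Near copies limit some of these values. Of the 78 tested members, 34 had at least 1 other annotated gene of at least 90% identity over 150 bases or more, and how the counting treated reads shared by both was not stated. Among the genes described above with values by group these were Ndufa4, Sdhc, Uqcrb, Cox5a, Cox6a1, Atp5b, Atp5g1 and Atp5j2. Among those named above only for a rise after co-culture they were Ndufa7, Ndufs5, Ndufs6, Cox7b, Cox7c, Atp5h and Atp5o. Cox4i2, Cox6a2, Cox6b2 and Cox7a1 had none. Exon overlap with a gene on the opposite strand was larger than in Cox6a2 for several genes named above. These were Atp5o (35.6%), Uqcrc2 (19.75%), Cox5a (12.8%), Atp5j (12.7%) and Ndufa2 (11.5%), and its part in their counts was not tested.

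Other genes of the pathway were followed through lists written by hand. Of all tested genes 21% were higher and 20.6% lower after co-culture, and 41.6% and 44.1% in young against old MSCs. The counts of each list below are to be read beside these shares. The subunits encoded in mitochondrial DNA had 7 of 11 tested genes higher and 0 lower after co-culture, with a median of 0.27. COX1, the catalytic subunit of complex IV, went from 352899 to 388671 to 406467 to 517784 and was at 157536 to 192601 in young MSCs. In young against old MSCs all 11 were lower, with a median of -0.81, the value of COX2. COX2, COX3, ATP6 and ND3 ran only from 104 to 323, 47.8 to 132, 20.6 to 108 and 0 to 187 over all libraries. COX2, COX3 and ATP6 were among those higher after co-culture, and why they were so low beside COX1 was not tested. Nuclear copies of mitochondrial DNA can share reads with the mitochondrial genes, and how such reads were counted was not stated.

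Of 49 tested assembly factors, 9 were higher and 1 lower after co-culture, and 19 higher and 22 lower in young MSCs. Nubpl, which inserts iron-sulfur clusters into complex I, rose by 0.38 ± 0.085 (SE, adjusted p = 0.000914), with 76.7, 92.05 and 111 in the young, 170.0, 190.4 and 202 in the old and 226, 248 and 266 in the rejuvenated old libraries. Of 15 regulators of respiratory genes, 4 were higher and 2 lower after co-culture. Tfam, which packages mitochondrial DNA, rose by 0.20 ± 0.039 (SE, adjusted p = 0.000335) and Nrf1 by 0.13 ± 0.040 (SE, adjusted p = 0.0151). The coactivator Ppargc1b had -0.98 ± 0.26 (SE, adjusted p = 0.00388) at counts of 4.83 to 13.2 against 13.6 to 26.6. In young MSCs 9 were higher and 5 lower. The coactivator Ppargc1a held 56.8 to 63.8 in young, 1.004 to 4.81 in old and 0 to 4.72 in rejuvenated old MSCs, and the nuclear receptor Esrra ran the other way, with 526 to 604, 1741 to 2029.8 and 1704 to 1849.

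Among 14 genes for mobile carriers and coenzyme Q synthesis, 4 were higher and 2 lower after co-culture, and 6 higher and 8 lower in young MSCs. Coq2, which attaches the side chain of coenzyme Q, rose by 0.28 ± 0.043 (SE, adjusted p = 1.7e-05). Cycs, the cytochrome c gene, had a log2 fold change of 0.14 ± 0.051 (SE, adjusted p = 0.0345). Of 26 citric acid cycle and pyruvate genes, 5 were higher and 9 lower after co-culture, among the latter citrate synthase Cs (-0.16 ± 0.027 SE, adjusted p = 6.01e-05) and the pyruvate dehydrogenase subunit Pdha1 (-0.31 ± 0.037 SE, adjusted p = 5.49e-07). Pdk1, a kinase that turns pyruvate dehydrogenase off, rose by 1.13 ± 0.038 (SE, adjusted p = 9.04e-16), from 1210.2 to 1304 in old to 2547 to 3058 in rejuvenated old MSCs.

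A list of 7 mitochondrial genes known to respond to low oxygen includes Cox4i2, Pdk1 and Ndufa4l2. All 7 were higher in rejuvenated old than in old MSCs, with a median of 1.14, and 6 were higher in young than in old MSCs, with a median of 1.16. Higd1a, known to associate with complex IV, went from 1004 to 1134 in old to 2114 to 2943 in rejuvenated old and 1821 to 2041 in young MSCs, and Bnip3, of mitochondrial autophagy, from 895 to 1019.6 to 2125 to 3174 and 3339 to 3753. Cox4i2 was the 1 gene of the list not higher in young than in old MSCs. The list was written with results of these libraries known, so its direction is no independent evidence. Of the brown adipocyte markers, 4 of 7 tested were higher and 1 lower after co-culture, and 2 higher and 5 lower in young MSCs.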

How the data were processed

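RNA-seq libraries (a stranded mRNA kit, per the labels) came from 18 MSC cultures, 6 per group. The authors used HISAT2 for alignment to mm10, StringTie and featureCounts for counting, and DESeq2 for normalization. Versions, annotation and strand setting are not given in the sources used here. The deposited values are a normalized count signal per gene and library, reads divided by 1 size factor per library. Reads per library, recovered from the step of the values, ran from 22936251 to 29559194, so the precision of genes with few counts is limited by counting error.

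Values were tested as log2(normalized count + 1) with limma 3.58.1 (R 4.3.3), all 3 groups in one fit, with a prior variance following the mean. The Benjamini-Hochberg adjustment covered 14353 genes (mean of 10 or more), and calls had an adjusted p under 0.05. This scale understates fold changes of low genes. Isoform ratios were compared with a two-sided exact permutation test over libraries, adjusted over 15 tests. On simulated counts for young against old MSCs over 14353 genes, the test was checked before use. Members, gene lists and tests were chosen with earlier results of these data known.

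Values by group were given for the called member with the largest rise and fall in each complex in 2 comparisons, both members of each isoform pair, and core subunits. A gene that this rule names is not reported here. Cox7a1 and other members were added after their values were seen. Gene positions, exon lengths and near copies came from RefSeq and GENCODE annotations of GRCm38, the latter with BLAST 2.17.0, and promoters from RefSeq. Alternatives covered the pseudocount, filter, scaling, prior, 2-group fits, replicate block, DESeq2 1.42.0 and edgeR 4.0.16 on recovered reads, stricter thresholds, chromosomes, transcript length, and leaving out each library. The replicate numbers were checked for pairing. The authors' other assays were not analysed here.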

Additional observations from a re-analysis of the deposited data

Results flagged for a closer look

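In 87 groups of 6 libraries (29 genes, 3 groups), 5 libraries lay farther from the others of their group than Dixon's 95% limit, where chance gives about 1 in 20 groups. Cox4i2 was 209.5 in rejuvenated old library 5, and 96.1 to 134.2 in the other 5, all far above every old and young library. Cox6a2 was 5.38 in old library 1 and 0.962 to 2.15 in the other old libraries, a difference of a few reads. Cox6b1 was 3722 in old library 3 against 3546 to 3609. Uqcrfs1 was 2222 in the same library against 2384 to 2455. Sdhb was 2668 in young library 2 against 2355 to 2468.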

How the results depend on the processing

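Cox4i2 passed the limit on the mean through the rejuvenated old libraries alone, so its calls are no independent support. The rise of Cox4i2, Cox6a2, Cox6b2 and Cox7a1 after co-culture kept its direction and call under every alternative in which each was tested. The counts of small changes did not. In rejuvenated old against old MSCs, an adjusted p under 0.01 gave 13 higher and 2 lower, a log2 fold change of at least 0.25 gave 6 and 1, centring on chromosome medians left 3 lower, and centring on transcript length gave 14 and 12, with complex II and III medians of -0.037 and -0.043. Leaving out 1 library gave 16 to 32 higher and 3 to 5 lower. Without chromosomes 1, 7, 12 and 16, 18 subunits were lower in young than in old MSCs and 23 higher in rejuvenated old than in young MSCs, of 60 tested.

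Complex medians of young against old MSCs moved as follows. Scaling to the same total gave 0.31 for complex I, -0.80 for II and 0.12 for V, the 75th percentile -0.83 for II, and quantile normalization -0.82 for II and 0.28 for IV. A mean of at least 50 gave 0.22 for IV. Without the 4 chromosomes, II was -0.46, IV 0.16 and V 0.14. Chromosome centring gave 0.034 for I and -0.23 for II, and length centring 0.15 for I and 0.12 for III. In rejuvenated old against young MSCs, scaling to the same total gave 0.74 for II, a mean of at least 50 gave -0.18 for IV, leaving out the 4 chromosomes 0.48 for II, -0.12 for IV and -0.051 for V, and chromosome centring 0.060 for I and 0.36 for II.

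Chromosome centring reversed Ndufv3 (-0.065), Cox5a (-0.038), Ndufs1 (0.17) and Uqcrfs1 (0.055) in young against old MSCs, and Atp5g2 (0.19), Ndufs1 (-0.20) and Uqcrfs1 (-0.096) in rejuvenated old against young MSCs. The Cox4i2 to Cox4i1 ratio of young against old MSCs was called with a pseudocount of 10 (-0.37, exact permutation test, adjusted p = 0.0368). The cause was not tested for any of these, beyond the fewer genes of the settings that leave genes out. With the replicate number as a block, 23 subunits were higher and 5 lower after co-culture, 38 and 29 in young than in old MSCs, and 36 and 33 in rejuvenated old than in young MSCs. Libraries of the same number correlated at -0.15 to 0.074, so the values showed no pairing by number. Such a correlation cannot exclude that cultures of the same number were set up together.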
